A study of Mus musculus with 14 samples.

Results

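The transcription factors described here are 8 genes that keep T cells in a naive or central, resting state: Tcf7, Lef1, Bach2, Satb1, Foxp1, Klf2, Klf3 and Id3. They were chosen by symbol, and all 8 were found among the 14449 genes of the deposited table and passed the filter on low values. The cells were sorted CD4+Foxp3eGFP+ T cells, which are regulatory T cells (Treg cells) marked by a green fluorescent reporter of the lineage factor Foxp3, taken at postnatal day 35 from lymph nodes of mice on the BALB/c background. The Il1rn-/- group had 7 libraries and the wild type group had 7. Il1rn encodes the secreted antagonist that keeps IL-1 from its receptor. The reporter, strain, age and tissue were common to both groups, and the labels do not say how the reporter was made. The sample titles also carry a letter, with 3 Il1rn-/- and 3 wild type libraries in set a and 4 Il1rn-/- and 4 wild type libraries in set b, and the labels do not explain it. Nothing in them says that libraries came from separate animals, so p-values measure only the spread between these libraries, which may be technical.

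TCF-1 (from Tcf7) and LEF-1 are DNA-binding partners of beta-catenin and of TLE corepressors that establish T cell identity in the thymus and are kept by naive and memory-precursor cells. BACH2, FOXP1 and KLF2 are associated with quiescence: they restrain effector genes or maintain the genes of recirculation through lymphoid tissue. KLF3 is a KLF family repressor that binds similar sites to KLF2. SATB1 folds chromatin during thymic development, including the development of Treg cells, and ID3 holds the E proteins away from DNA. In Treg cells several of these factors mark the resting, lymphoid-homing fraction, as opposed to the effector Treg cells of inflamed tissue.

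The windows just upstream of the annotated start sites are shown for Lef1, Id3 and Klf3, because the results that follow turn on these 3 genes; for Lef1 it is the first of 4 annotated start sites. Each is 250 bases from RefSeq on GRCm38.p6, whose sequence is that of C57BL/6J and not of the BALB/c animals, printed 5′ to 3′ on the strand of the gene. Capitals mark the letters CCACCC or their reverse complement GGGTGG, the core bound by KLF family proteins.
Lef1 (chr3:131110047-131110296, + strand): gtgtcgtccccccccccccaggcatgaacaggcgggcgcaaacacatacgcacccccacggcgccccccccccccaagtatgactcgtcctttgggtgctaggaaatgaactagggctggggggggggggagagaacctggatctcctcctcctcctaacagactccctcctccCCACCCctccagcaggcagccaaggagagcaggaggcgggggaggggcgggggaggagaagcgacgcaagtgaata
Id3 (chr4:136143572-136143821, + strand): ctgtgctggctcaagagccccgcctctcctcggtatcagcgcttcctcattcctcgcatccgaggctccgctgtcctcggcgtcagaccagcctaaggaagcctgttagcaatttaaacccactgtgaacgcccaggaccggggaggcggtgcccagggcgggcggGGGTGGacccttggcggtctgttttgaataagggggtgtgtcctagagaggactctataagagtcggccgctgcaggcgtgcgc
Klf3 (chr5:64803271-64803520, + strand): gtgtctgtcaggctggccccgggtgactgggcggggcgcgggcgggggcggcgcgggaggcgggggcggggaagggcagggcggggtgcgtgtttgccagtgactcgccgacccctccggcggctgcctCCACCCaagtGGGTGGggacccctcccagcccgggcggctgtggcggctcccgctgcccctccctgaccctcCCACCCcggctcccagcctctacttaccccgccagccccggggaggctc
The Klf3 window held 3 such matches, and the Lef1 and Id3 windows held 1 each. Over the 18 annotated start sites of the 8 genes, 12 windows held the KLF letters, against 28.1% of 32851 mouse windows of the same length. Some start sites lie close together and share bases, and Lef1 windows 1 and 2 share their match. The windows were not matched for base composition. G and C made up 66.4%, 62.8% and 78.4% of the printed Lef1, Id3 and Klf3 windows. The TCF and LEF letters CTTTGA, searched on both strands, were in 3 of the 18 windows and in 13.8% of all windows. The E-box letters CANNTG, which E proteins bind, were in 11 of the 18 windows and in 66.2% of all. The forkhead letters TGTTTA were in 3 of the 18 windows and in 12.0% of all. A match is a run of letters and not a bound site, and binding was not measured.

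The factors spanned a wide range of levels, and all were detected in every library. Levels are log2 CPM, the deposited base-2 logarithm of CPM (counts scaled to a common library size). Per kilobase of the longest annotated coding transcript, Id3 averaged 5.75 ± 0.92 log2 CPM per kb (SD over 14 libraries) and Tcf7 averaged 5.39 ± 0.24. Lef1 followed at 4.98 ± 0.37, Foxp1 at 4.21 ± 0.27 and Satb1 at 3.69 ± 0.26. The lowest were Klf2 at 3.10 ± 0.37, Klf3 at 2.40 ± 0.64 and Bach2 at 1.49 ± 0.46 log2 CPM per kb. Id3 was above Tcf7 in 10 of the 14 libraries, with a mean difference of 0.37 ± 0.79 (SD of the differences over libraries), so their order varied. Klf2 was above Klf3 in 13 libraries and below it in 1, with a mean difference of 0.70 ± 0.79. These SDs give the spread between libraries and are no test of the mean differences. Tcf7 was above Lef1, and Lef1 above Foxp1, in all 14 libraries. Foxp1 was above Satb1 in 13 libraries, Satb1 above Klf2 in 13 and Klf3 above Bach2 in 12. The transcript lengths came from GENCODE M21, which may not be the annotation the authors counted on.

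The number of reads behind these levels was modest for the weaker factors. Klf2 had 13 to 93 reads per library, Klf3 had 28 to 184, Bach2 had 22 to 199 and Id3 had 63 to 409. Libraries held 952021 to 3756559 reads in the genes of the table. Of these, Rn45s, the ribosomal RNA precursor, took 59.6% to 65.8% in 6 libraries (Il1rn-/- 1-b and 2-b, wild type 1-b to 4-b) and 20.3% to 39.95% in the other 8. The first kind is called high-Rn45s here and the second low-Rn45s, a division made at 50% after seeing the data, and since it holds 2 Il1rn-/- and 4 wild type libraries against 5 and 3, it is not balanced over genotype. Reads outside Rn45s were 384360 to 905988 in the high-Rn45s libraries and 1654868 to 2805693 in the low-Rn45s libraries. Y-linked transcripts (at least 10 reads) were found in Il1rn-/- 3-b and 4-b and in wild type 1-a and 2-a, which are 1 genotype in each set. Of the defining genes of the sort, Foxp3 was at 8.15 to 9.06 log2 CPM and Cd4 at 7.95 to 8.55. The T cell gene Cd3e, which did not define the sort, was at 6.97 to 10.1. The table has no row for Il1rn, so the targeted gene could not serve to check the genotype labels.

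**Figure D1:**
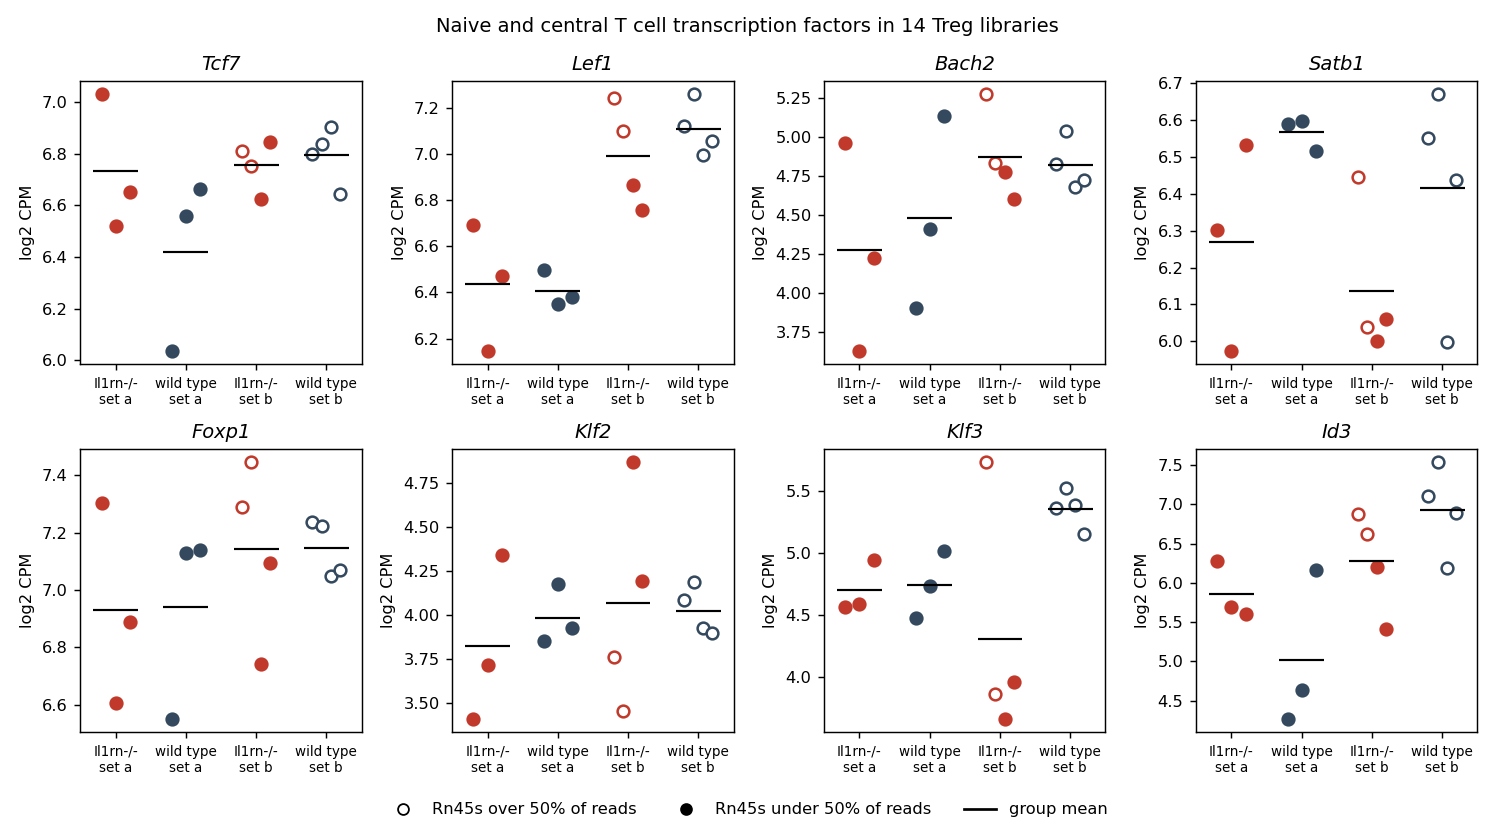
Log2 CPM of the 8 factors in each of the 14 libraries, by genotype and set, with each panel on its own scale. Each point is 1 library, open where Rn45s took over 50% of reads, and the lines are group means; Klf3 in Il1rn-/- 2-b, 3-b and 4-b, at 3.66 to 3.96, lies below every other library.

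The main question was whether Treg cells of Il1rn-/- mice, which develop arthritis, hold a different amount of these transcripts from wild type cells. None of the 8 factors passed limma's test at a Benjamini-Hochberg adjusted p of 0.05 in a model of genotype and set, and neither did any of the 12329 genes tested (0% called). At an unadjusted p under 0.05, 679 genes (5.51%) were counted, among them 1 of the 8, Klf3. Differences below are Il1rn-/- minus wild type in log2, with their standard error. They were negative for 7 factors and positive for 1, with a median of -0.05, against 44.7% negative and 55.3% positive and a median of 0.04 over all genes tested. With library kind in place of set in the model, Lef1 (0.13), Bach2 (0.073), Foxp1 (0.085) and Id3 (0.40) turned positive, while Klf3 (-0.47) and Satb1 (-0.30) stayed negative.

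Klf3, which encodes a zinc finger repressor that recruits CtBP, had the largest difference of the 8. In set a it was at 4.57, 4.59 and 4.95 log2 CPM in Il1rn-/- 1-a to 3-a and at 4.48, 4.74 and 5.02 in wild type 1-a to 3-a. In set b it was at 5.74, 3.87, 3.66 and 3.96 log2 CPM in Il1rn-/- 1-b to 4-b and at 5.36, 5.53, 5.39 and 5.16 in wild type 1-b to 4-b. Thus 3 of the 4 Il1rn-/- libraries of set b lay below all others, while the fourth, 1-b, was the highest of the 14, and the groups overlapped in both sets. Over all libraries Klf3 averaged 4.48 ± 0.72 log2 CPM in Il1rn-/- and 5.10 ± 0.38 in wild type (SD, n = 7 each). The difference was -0.62 ± 0.28, with a 95% confidence interval of -1.20 to -0.04, an unadjusted p of 0.0363 and an adjusted p of 0.787 in limma. Its sign was negative in set b (-1.05 ± 0.34, adjusted p = 0.254 in limma) and the value in set a was near 0 (-0.04 ± 0.39). Without Il1rn-/- 1-b, the contrary value, the set b difference was -1.53 with an adjusted p of 0.0122 in limma. Klf3 was then called, as 1 of 7 genes among the 12329 tested. Of the 8 fits with 1 library of set b left out, this was the only 1 to call it. The differences of these fits reached -0.84 and their adjusted p reached 0.668 in limma. With the library kind added to the model, the set b difference was -0.56 with an adjusted p of 0.985 in limma. That fit compares only Il1rn-/- 1-b and 2-b with wild type 1-b to 4-b, the high-Rn45s libraries. The low values in Il1rn-/- 3-b and 4-b do not enter it, so it does not show whether kind accounts for them. The 3 low libraries included both kinds, since Il1rn-/- 2-b was a high-Rn45s library and Il1rn-/- 3-b and 4-b were low-Rn45s libraries that also held Y-linked transcripts.

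Satb1, the chromatin organiser, had the next largest difference and kept its sign across sets. It was at 6.30, 5.97 and 6.53 log2 CPM in Il1rn-/- 1-a to 3-a, against 6.59, 6.60 and 6.52 in wild type 1-a to 3-a. In set b it was at 6.44, 6.04, 6.00 and 6.06 log2 CPM in Il1rn-/- 1-b to 4-b, against 6.55, 6.67, 6.00 and 6.44 in wild type 1-b to 4-b. The Il1rn-/- libraries were mostly the lower ones, but Il1rn-/- 3-a lay just above wild type 3-a and wild type 3-b was the lowest library of set b, so the groups overlapped in both sets. Over all libraries Satb1 averaged 6.19 ± 0.23 log2 CPM in Il1rn-/- and 6.48 ± 0.22 in wild type (SD, n = 7 each). The difference was -0.29 ± 0.14, with an interval of -0.58 to 0.00, an unadjusted p of 0.0513 and an adjusted p of 0.787 in limma. It was -0.30 ± 0.22 within set a and -0.28 ± 0.19 within set b. The lowest wild type value, in 3-b, came from the shallowest library and rested on 55 reads.

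Id3, the inhibitor of E proteins, had opposite signs in the sets. In set a it was at 6.28, 5.69 and 5.61 log2 CPM in Il1rn-/- 1-a to 3-a and at 4.26, 4.63 and 6.17 in wild type 1-a to 3-a. In set b it was at 6.87, 6.63, 6.20 and 5.41 log2 CPM in Il1rn-/- 1-b to 4-b and at 7.10, 7.54, 6.20 and 6.89 in wild type 1-b to 4-b. The wild type libraries spanned more than 3 units, with 1-a and 2-a at the bottom and 2-b at the top, and groups overlapped in both sets. The genotype difference was 0.84 ± 0.43 within set a, -0.66 ± 0.38 within set b, and -0.01 ± 0.33 over all libraries, with an interval of -0.70 to 0.67. Single libraries moved these values: set a gave 0.46 without wild type 1-a and 1.41 without wild type 3-a, and set b gave -0.37 without Il1rn-/- 4-b. Within the high-Rn45s libraries alone, which are all of set b, the difference was -0.18. The difference between the sets' values was -1.50 ± 0.58, with an unadjusted p of 0.0178 and an adjusted p of 0.610 in limma, so it did not pass. By that test 0% of genes were called and 968 (7.85%) had an unadjusted p under 0.05. With the library kind in the model the difference between the sets' values was -1.02. Its set b part then rests on Il1rn-/- 1-b and 2-b against wild type 1-b to 4-b, the high-Rn45s libraries. The 2 lowest wild type libraries, 1-a and 2-a, were those with Y-linked transcripts. The 2 lowest Il1rn-/- libraries of set b, 3-b (6.20) and 4-b (5.41), also held them. Over both sets, the genotype difference was 0.29 with library kind and Y-linked transcripts in the model in place of set. It was -0.23 without these libraries, with library kind in the model. The part of Y-linked transcripts in the opposite signs of the sets was not tested.

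The partners TCF-1 and LEF-1 differed little by genotype. Tcf7 ranged in Il1rn-/- from 6.52 to 7.03 log2 CPM (median 6.75) and in wild type from 6.04 to 6.90 (median 6.66). Its difference was 0.11 ± 0.14, with an interval of -0.17 to 0.40. Lef1 ranged in Il1rn-/- from 6.14 to 7.24 log2 CPM (median 6.76) and in wild type from 6.35 to 7.26 (median 7.00). Its difference was -0.06 ± 0.13, with an interval of -0.32 to 0.21. The genotypes overlapped in both genes.

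Bach2, Foxp1 and Klf2 likewise gave intervals on both sides of 0. Bach2, a repressor that holds back effector programmes including that of Prdm1, was at 3.63 to 5.27 log2 CPM in Il1rn-/- (median 4.77) and at 3.91 to 5.13 in wild type (median 4.72), a difference of -0.06 ± 0.22 with an interval of -0.52 to 0.40. Foxp1, a forkhead relative of Foxp3 that maintains naive T cell quiescence, was at 6.61 to 7.45 log2 CPM in Il1rn-/- (median 7.10) and at 6.55 to 7.24 in wild type (median 7.13). Its difference was -0.005 ± 0.15, with an interval of -0.32 to 0.31. Klf2, the activator of the egress receptor gene S1pr1, was at 3.41 to 4.87 log2 CPM in Il1rn-/- (median 3.76) and at 3.85 to 4.19 in wild type (median 3.93). Its difference was -0.04 ± 0.22, with an interval of -0.51 to 0.42, and its SD over libraries was 0.53 in Il1rn-/- and 0.14 in wild type. A p that misses the threshold does not show that levels were equal, and the intervals of these 5 factors with small differences still hold values of up to 0.52 log2 units in size.

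**Figure D2:**
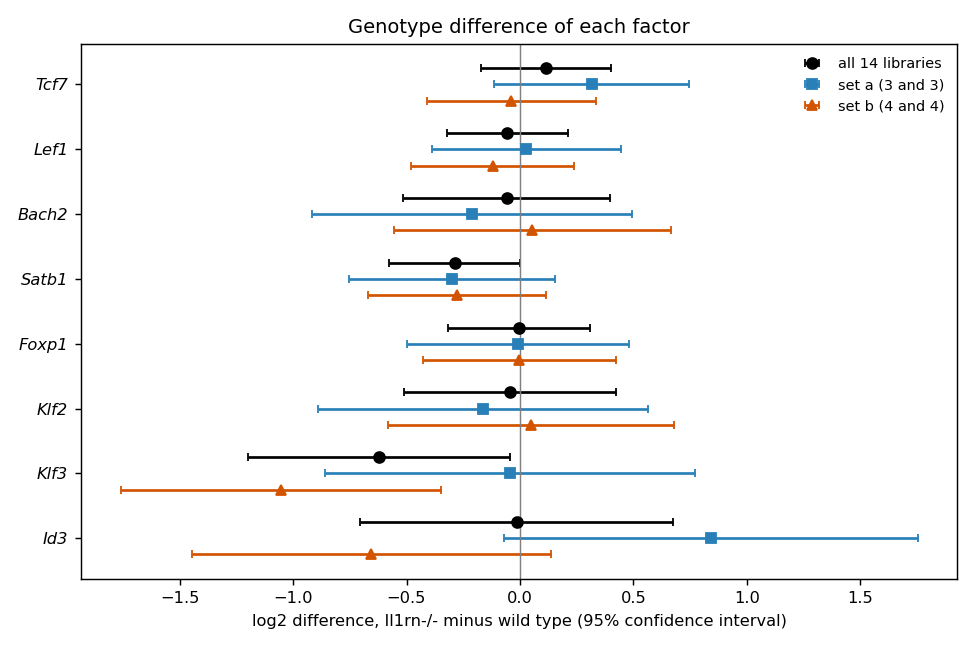
Log2 difference between Il1rn-/- and wild type (x axis) for each factor, over all 14 libraries and within each set, with 95% confidence intervals from limma. The intervals of Klf3 over all libraries and in set b end below 0, and no factor passed after adjustment.

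Within set a alone and within set b alone, no gene was called by limma (0% in each), and 243 genes (1.97%) and 1848 genes (15.0%) had an unadjusted p under 0.05. Of the 8 factors only Klf3 in set b was among these. In set a, differences of the other factors not yet given were 0.32 ± 0.21 for Tcf7, 0.03 ± 0.20 for Lef1, -0.21 ± 0.34 for Bach2, -0.01 ± 0.23 for Foxp1 and -0.16 ± 0.35 for Klf2. In set b they were -0.04 ± 0.18 for Tcf7, -0.12 ± 0.17 for Lef1, 0.05 ± 0.29 for Bach2, -0.002 ± 0.20 for Foxp1 and 0.05 ± 0.30 for Klf2. Tcf7, Lef1, Bach2, Klf2 and Id3 thus had different signs in the sets. The median of all genes in set b moved by scaling, to -0.13 from 0.05 when CPM were taken over reads outside Rn45s, and the signs of Bach2 and Klf2 in set b turned with it, to -0.13 and -0.14. Centring on library medians turned Lef1 in set a to -0.036 and Foxp1 in set b to 0.0092.

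Larger and better resolved differences lay between sets and between kinds of library. Set b had Lef1 higher than set a by 0.63 ± 0.13 (adjusted p = 0.00352 in limma) and Id3 higher by 1.16 ± 0.33 (adjusted p = 0.0208). That made 2 of the 8 factors called higher, where 8.48% of all genes were called higher and 11.0% lower, 19.5% together. Lef1 did not overlap between sets: it was at 6.76 to 7.26 log2 CPM in the 8 libraries of set b (6.76 to 7.24 in Il1rn-/-, 7.00 to 7.26 in wild type) and at 6.14 to 6.69 in the 6 libraries of set a. Of all genes, 0.730% were higher in set b without overlap. Id3 was at 5.41 to 7.54 log2 CPM in set b and at 4.26 to 6.28 in set a, with overlap. Bach2 (0.47 ± 0.22, adjusted p = 0.142 in limma) did not pass, nor did Tcf7 (0.20 ± 0.14), Foxp1 (0.21 ± 0.15), Klf2 (0.14 ± 0.23), Klf3 (0.11 ± 0.28) or Satb1 (-0.14 ± 0.14). Without wild type 1-a or 2-a, the 2 lowest for Id3, its difference was 0.90 or 0.98 and its adjusted p 0.0652 or 0.0690 in limma, so that call was lost.

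The same 2 genes were called between library kinds, a comparison of groups defined from the data that largely follows the sets, as all 6 high-Rn45s libraries belong to set b. Lef1 was higher in high-Rn45s than in low-Rn45s libraries by 0.65 ± 0.12 (adjusted p = 0.000389 in limma, with genotype in the model) and Id3 by 1.46 ± 0.29 (adjusted p = 0.000496). Of all genes 16.1% were called higher and 20.0% lower, 36.1% together. Lef1 was at 7.00 to 7.26 log2 CPM in the 6 high-Rn45s libraries and at 6.14 to 6.87 in the 8 low-Rn45s libraries, without overlap, as were 6.56% of all genes in that direction. Within set b, Il1rn-/- 1-b and 2-b (7.24 and 7.10) were above Il1rn-/- 3-b and 4-b (6.87 and 6.76), which in turn lay above all of set a. Id3 was at 6.20 to 7.54 log2 CPM in high-Rn45s and at 4.26 to 6.28 in low-Rn45s libraries. All libraries with Y-linked transcripts were low-Rn45s libraries. Id3 was at 4.26 to 6.20 log2 CPM in them and at 5.61 to 6.28 in the remaining low-Rn45s libraries. The part of Y-linked transcripts in the difference between kinds was not tested. Klf3 (0.54 ± 0.26), Bach2 (0.46 ± 0.22), Foxp1 (0.31 ± 0.14) and Tcf7 (0.23 ± 0.13) had positive differences that did not pass, and Satb1 (-0.05 ± 0.14) and Klf2 (-0.20 ± 0.22) had negative ones.

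These counts depended on scaling, because Rn45s takes up much of each library. With CPM over reads outside Rn45s, the median of all genes between kinds was 0.07 and not -0.12, and 2665 genes were higher and 1649 lower, against 1983 and 2464 on the deposited scale. On that scale Tcf7 (0.42, adjusted p = 0.0477 in limma), Bach2 (0.66, adjusted p = 0.0420) and Foxp1 (0.51, adjusted p = 0.0280) were also called higher, and Satb1 turned positive (0.14). When set and library kind entered 1 model, Lef1 differed by 0.37 between sets (adjusted p = 0.583 in limma) and by 0.35 between kinds (adjusted p = 0.209). Id3 then differed by 0.18 between sets (adjusted p = 0.969 in limma) and by 1.31 between kinds (adjusted p = 0.0603). Set and kind cannot be told apart for either gene with these libraries.

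**Figure D3:**
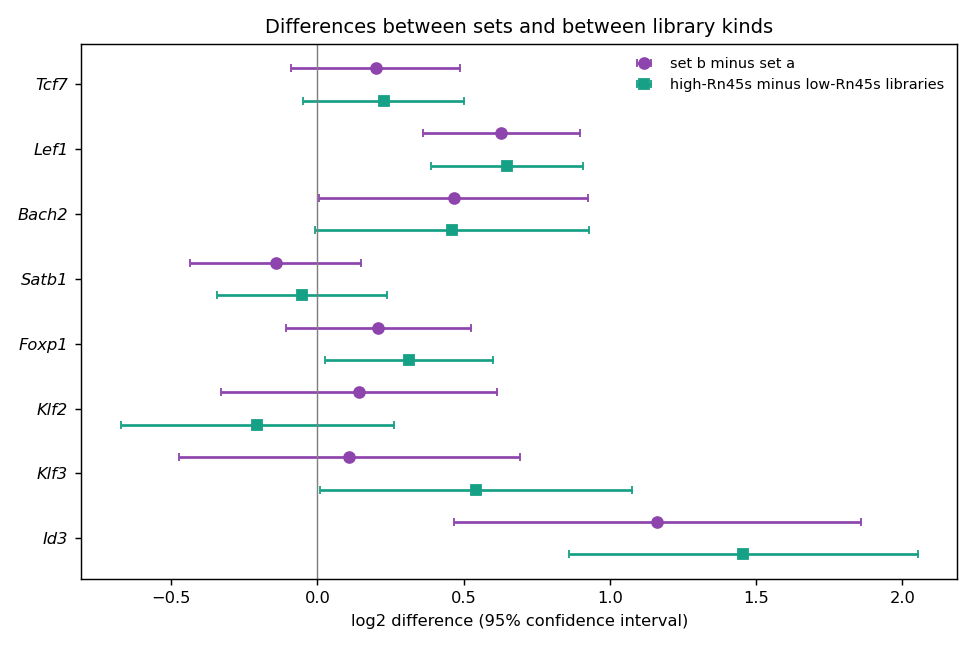
Log2 difference of each factor between set b and set a and between high-Rn45s and low-Rn45s libraries (x axis), with 95% confidence intervals from limma. Lef1 and Id3 lie to the right of 0 in both, at 0.63 and 1.16 between sets and 0.65 and 1.46 between kinds.

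**Figure D4:**
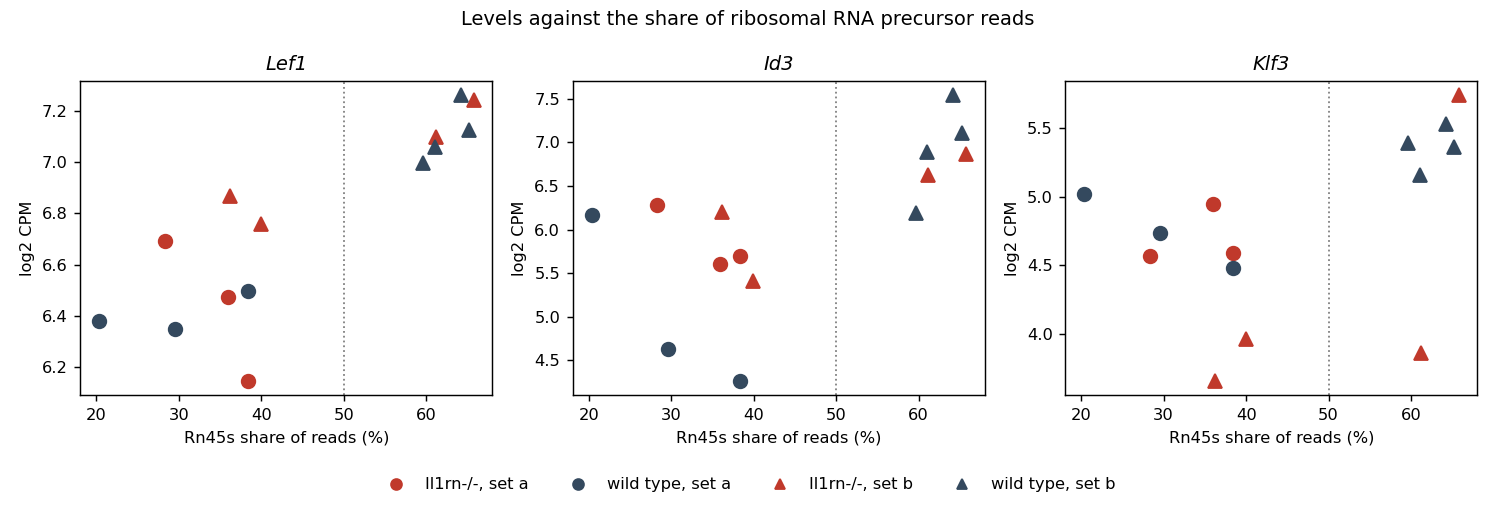
Log2 CPM of Lef1, Id3 and Klf3 in each library (y axis) against the percent of its reads in Rn45s (x axis), by genotype and set, with a dotted line at 50%. Lef1 was at 7.00 or above in all 6 libraries right of the line, and Klf3 was at 3.87 in 1 of them, Il1rn-/- 2-b, and at 5.16 to 5.74 in the others.

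Bulk RNA cannot separate fewer cells of a type from less RNA per cell, and some of these factors are also made by B cells and CD8 T cells, so markers of other cells are given. Of 12 B cell markers, 11 are in the table, and their summed CPM was 19.2 to 73.2 in Il1rn-/- and 29.3 to 81.8 in wild type. It was 19.2 to 60.9 in set b and 43.1 to 81.8 in set a, with Cd22 and Ms4a1 lower in set b by limma's test, so it ran the other way from Lef1 and Id3. Within set b, where Klf3 differed most, it was 19.2 to 38.8 in Il1rn-/- and 29.3 to 60.9 in wild type. Pax5, a defining B cell factor, had 0 reads in 7 libraries. Other markers of the list had reads in every library, among them Cd79a (7 to 32), Ms4a1 (1 to 54) and Cd22 (1 to 108). Of 8 CD8 T and NK cell markers, 6 are in the table, at a summed 50.4 to 76.1 CPM in Il1rn-/- and 45.3 to 94.3 in wild type. Their sum was 45.3 to 94.3 CPM in set b and 49.9 to 60.2 in set a, and 45.3 to 94.3 in high-Rn45s and 49.9 to 75.2 in low-Rn45s libraries. Cd8b1 was higher in set b (1.01 ± 0.29), and Cd8a (1.16 ± 0.28) and Cd8b1 (1.25 ± 0.25) were higher in high-Rn45s libraries, as Lef1 and Id3 were. The dendritic cell markers H2-Ab1 (1.30 ± 0.26) and Ccr9 (1.21 ± 0.38) and the plasma cell marker Xbp1 (0.67 ± 0.24) were also higher there by limma's test. Signs between kinds were mixed in each of these lists. Tested CD8 T and NK cell markers gave 4 positive and 1 negative differences, dendritic cell markers 4 and 2, and plasma cell markers 2 and 2. Of the dendritic cell markers, Zbtb46 and Siglech had 0 reads in 7 libraries. Dendritic cell markers summed to 95.2 to 323 CPM in high-Rn45s and 58.9 to 187 in low-Rn45s libraries, and plasma cell markers to 107 to 159 in high-Rn45s and 34.2 to 126 in low-Rn45s libraries. The plasma cell sum rested mainly on Xbp1, which had 84 to 456 reads per library. Each other marker of that list had at most 27 reads in a library, and Sdc1 had 0 reads in 9 libraries and Jchain in 8. The part of all these markers in the results on Lef1 and Id3 was not tested. Plasma cell markers (5 of 7 in the table) summed to 34.2 to 159 CPM in Il1rn-/- and 85.3 to 149 in wild type. Monocyte and macrophage markers (8 of 10) summed to 2.15 to 27.4 CPM in Il1rn-/- and 9.29 to 16.9 in wild type. Dendritic cell markers (7 of 10) summed to 60.6 to 157 CPM in Il1rn-/- and 58.9 to 323 in wild type. No gene of these 5 lists passed by genotype. Genes with the smallest unadjusted p in these lists were Cd79a (-0.65 ± 0.33) and Blk (-1.33 ± 0.79), Derl3 (-0.75 ± 0.46) and Mzb1 (-0.88 ± 0.76), Cd8b1 (-0.28 ± 0.28) and Prf1 (0.31 ± 0.42), Csf1r (-1.87 ± 1.01), and H2-Ab1 (-0.52 ± 0.34) and Xcr1 (0.94 ± 0.78). Several rested on few reads per library: Blk on 0 to 7, Mzb1 on 0 to 15, Csf1r on 0 to 6 and Xcr1 on 0 to 9. 

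The relatives and partners of the factors were described from lists by role, with the 2 genes of smallest unadjusted p by genotype named in each. No gene of any list passed limma's test by genotype, and genes named as higher or lower between sets or kinds passed it there. Among 11 tested cofactors of TCF-1 and LEF-1, 9 differences were negative and 2 positive, with a median of -0.15, against 0.04 over all genes. Their named genes were Tcf7l1, a further TCF family member (-0.93 ± 0.47, 1 to 14 reads), and Aes, a truncated relative of the TLE corepressors (-0.54 ± 0.32). Aes was higher in high-Rn45s than in low-Rn45s libraries by 1.28 ± 0.23, and so were Ctnnb1, the beta-catenin gene, by 0.76 ± 0.23, and Tle3 by 0.53 ± 0.16 (adjusted p = 0.000250, 0.0126 and 0.0153 in limma). Between sets, Bcl9, an adaptor of beta-catenin, was the 1 cofactor called, higher in set b by 1.01 ± 0.31.

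Of the 5 tested ID and E protein genes, 3 differences were positive and 2 negative, with a median of 0.08. The named ones, the E protein genes Tcf4 (-0.51 ± 0.52) and Tcf3 (0.19 ± 0.22), lay within their errors. Of 6 FOXO and FOXP relatives, 3 were positive and 3 negative, with a median of -0.02. Foxo3 (-0.54 ± 0.53), which encodes a FOXO factor restrained by AKT, and Foxn3 (-0.20 ± 0.30) were named. Both were higher in high-Rn45s libraries, by 2.64 ± 0.29 and 0.83 ± 0.26, and Foxo3 was higher in set b by 1.57 ± 0.54. Lyl1, a bHLH factor that pairs with E proteins, was lower in high-Rn45s libraries (-3.22 ± 0.70, with 0 to 12 reads per library).

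Among 12 KLF relatives and KLF3 corepressors, 6 were positive and 6 negative, with a median of 0.05. Klf13 was at 6.36 ± 0.95 log2 CPM in Il1rn-/- and 7.05 ± 1.01 in wild type (SD, n = 7 each), a difference of -0.68 ± 0.27 with an unadjusted p of 0.0219 and an adjusted p of 0.787 in limma. It was higher in high-Rn45s libraries by 1.90 ± 0.11 and in set b by 1.46 ± 0.28. Klf9 (-1.75 ± 0.78) had 0 to 9 reads per library. Klf4, Klf6 and Klf12 were lower in high-Rn45s libraries (-2.69 ± 0.71, -1.42 ± 0.44 and -2.15 ± 0.77; Klf4 had 0 to 24 reads per library and Klf12 0 to 18), while the corepressor genes on this list did not pass in any comparison made.

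Of 7 relatives of BACH2 and small MAF partners, 4 were positive and 3 negative, with a median of 0.14, and the named ones were Nfe2l1 (-0.24 ± 0.22) and Mafk (0.32 ± 0.32). Mafg was lower in set b (-1.64 ± 0.51) and in high-Rn45s libraries (-2.07 ± 0.44), and Mafk was lower in high-Rn45s libraries (-0.95 ± 0.25). Small MAF proteins are the DNA-binding partners of BACH2.

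The surface and marker genes of naive and central T cells, which include targets of these factors, gave 9 negative and 5 positive genotype differences over 14 genes, with a median of -0.08. The named ones were Ly6c1 (2.49 ± 0.83, 0 to 7 reads) and Il6ra, a receptor subunit for IL-6 (0.28 ± 0.17). Between sets, Ccr7, the receptor that guides cells into lymph nodes, was higher in set b by 0.77 ± 0.23 and Actn1 by 0.80 ± 0.27, and 0 genes of the list were called lower. Between kinds, Actn1 (1.09 ± 0.22), Txk (0.44 ± 0.14) and S1pr1 (0.40 ± 0.13) were higher in high-Rn45s libraries, and 0 were called lower. They were called in the same direction as Lef1 and Id3. Genes called higher, not all of them named, were 3 of 14 between sets, against 8.48% of all genes. Between kinds they were 4 of 14, against 16.1%. The signs over the whole list were mixed, with 10 positive and 4 negative differences between sets and 8 positive and 6 negative between kinds.

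The effector T cell transcription factors, which act against the naive state, had 8 positive and 7 negative genotype differences over 15 genes, with a median of 0.00. Pparg (-1.76 ± 1.01, 0 to 3 reads) and Rora (0.49 ± 0.30) were named. Rora was the 1 effector factor called elsewhere, lower in set b (-1.24 ± 0.30) and in high-Rn45s libraries (-1.60 ± 0.23). Other T lineage factors had 3 positive and 9 negative differences over 12 genes, with a median of -0.04, and named Ikzf1 (-0.16 ± 0.18) and Ets1 (0.17 ± 0.19). Elf4 (0.77 ± 0.14) and Ikzf1 (0.43 ± 0.16) were higher in high-Rn45s libraries. T cell and Treg identity genes had 7 positive and 5 negative differences over 12 genes, with a median of 0.06, and named Cd3e (-0.65 ± 0.32) and Nrp1 (0.25 ± 0.15). In high-Rn45s libraries 5 of these 12 genes were higher by limma's test, Cd3e (2.46 ± 0.17), Cd3d (0.86 ± 0.18), Il2ra (0.76 ± 0.11), Izumo1r (0.60 ± 0.16) and Cd4 (0.41 ± 0.10), and 3 were lower, Ctla4 (-1.11 ± 0.20), Ikzf2 (-0.58 ± 0.13) and Nrp1 (-0.40 ± 0.12). Over all genes tested, 16.1% were called higher and 20.0% lower between kinds. The genes given for sets and kinds in the lists were named after their values were seen.

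**Figure D5:**
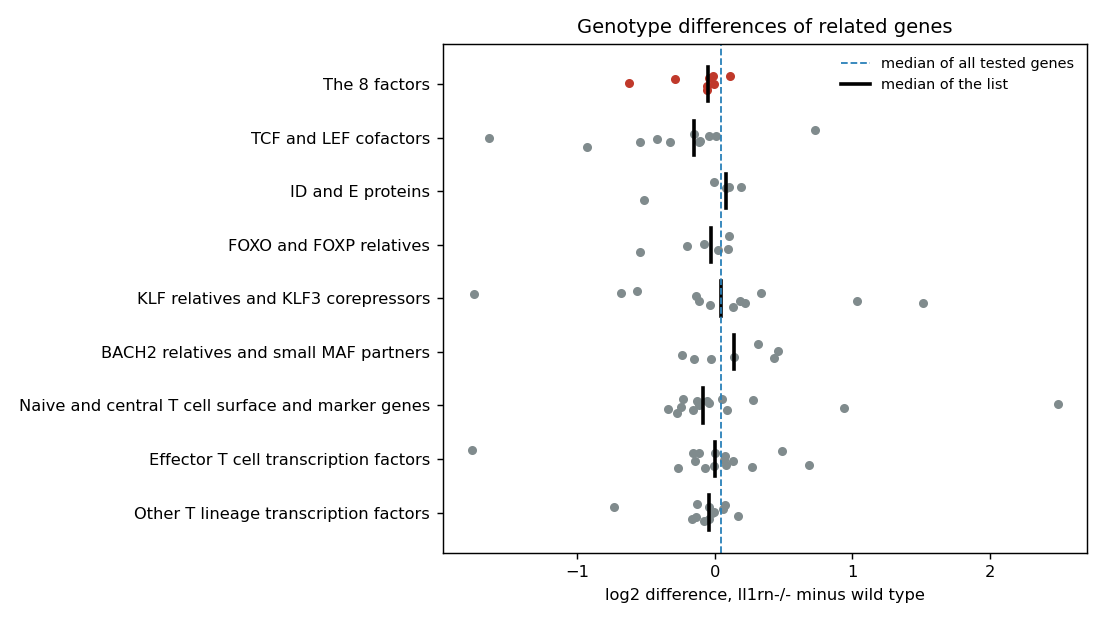
Log2 difference between Il1rn-/- and wild type (x axis) of the 8 factors and of the genes in 8 related lists, each point 1 gene. The black bars, the medians of the lists, lie between -0.15 and 0.14, on both sides of the dashed median of all tested genes at 0.04.

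Genes with the most similar pattern were taken by Pearson's r of log2 CPM computed separately within the 8 low-Rn45s and the 6 high-Rn45s libraries, ranked by the smaller of the pair of values over 5156 candidates. These are descriptions of few libraries that share depth and preparation. Id3 had the closest neighbours, Ap5b1 (smaller value 0.895) and Rnf167 (0.891). Klf2 was most like Pcbp2 (0.845) and Sertad1 (0.830), Lef1 most like Clk3 (0.838) and Ivd (0.808), and Bach2 most like Tdrp (0.836) and Sh3gl1 (0.813). Foxp1 was most like Tsc1 (0.827) and Asb8 (0.824), Tcf7 most like Igf2r (0.819) and Fam120b (0.818), Klf3 most like Asxl2 (0.808) and Pi4ka (0.748), and Satb1 most like Mindy2 (0.789) and Champ1 (0.761). No factor was nearest to a gene of the lists above.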

How the data were processed

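Per the labels' protocols, RNA of 50000 sorted cells per sample was isolated by column (Qiagen RNeasy Micro), Smart-Seq2 libraries for low input were sequenced, and transcripts were quantified with Cuffquant 2.2.1. The submitters' processing notes further list the tools BWA, TopHat2 (2.0.10), Cufflinks (2.2.1) and also Cuffnorm. Build, annotation, strand handling and scaling method: not given in the sources used here. The deposited values, made by the authors, are log2 CPM to which a small prior count was added, for 14449 genes in 14 libraries; a value of -3.58 stands for 0 reads. Linear sums differ between libraries, so scaled library sizes were used (scaling factors 0.690 to 1.61). Whole reads were recovered from the linear steps (for 100% of values, at a tolerance of 0.001 reads) and served for depth, which was 952021 to 3756559 reads per library, and for limma voom. Few reads limit precision, and without molecular identifiers reads need not be independent molecules.

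The 12329 genes whose CPM exceeded 1 in 3 or more libraries were tested on the deposited log2 scale, using limma 3.58.1 under R 4.3.3 with its intensity trend, two-sided tests and Benjamini-Hochberg adjusted p-values, called under 0.05. The model held genotype and the letter of the title. A 4-group model gave differences within sets and between them, and a model of genotype and library kind gave the comparison by Rn45s. Changes of known size in simulated data served to test the fit. All 14 libraries entered the main tests. Alternatives were another filter, prior count, scaling, covariates, library weights, subsets, a replicate block, limma voom and each library left out.

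The 8 members, the gene lists, the tests and the library kinds were chosen with earlier results of these data known. The named genes were the 8 members, in each list the 2 genes with the smallest unadjusted p by genotype, Foxp3, Cd4, Cd3e and Rn45s, and for likeness 2 genes per member with a mean log2 CPM of at least 4, leaving out predicted genes. A few genes of the lists are not reported here. Figures and promoter windows used Python 3.11.15 and matplotlib 3.10.9.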

Additional observations from a re-analysis of the deposited data

Results flagged for a closer look

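In 5 of 32 groups checked, of 4 or 7 libraries each, 1 library of a factor stood apart from the rest by Dixon's 95% criterion, which chance alone meets in about 1 group in 20. Klf3 was at 5.74 log2 CPM in Il1rn-/- 1-b, the highest of the 4 Il1rn-/- libraries of set b, and the other 3 lay at 3.66 to 3.96. Satb1 was at 6.44 log2 CPM in the same library, also the highest of those 4, with the others at 6.00 to 6.06. Satb1 was at 6.00 log2 CPM in wild type 3-b, the lowest of the 7 wild type libraries and the shallowest of all. Tcf7 at 6.04 log2 CPM and Foxp1 at 6.55 log2 CPM were both the lowest of the 7 wild type libraries in wild type 1-a, which holds Y-linked transcripts.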

How the results depend on the processing

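Fitted across both sets, the genotype difference of Klf3 and Satb1 was negative and short of the threshold under all alternatives run, including each library left out, and likewise within each library kind alone. By genotype 0 genes were called, and 0 genes with each library left out, but 2 in low-Rn45s libraries alone and 13 in high-Rn45s libraries alone. In set b, 4 genes were called with library kind as covariate, a fit that compares Il1rn-/- 1-b and 2-b with wild type 1-b to 4-b. With 1 library left out, 0 to 230 were called (230 without Il1rn-/- 2-b, 7 without Il1rn-/- 1-b, 3 without wild type 1-b). In set a that range was 0 to 1 (1 without wild type 3-a). Between sets, 12 genes were called with set and kind in 1 model, and 1355 to 3376 with 1 library left out (1355 without wild type 2-a, 1570 without wild type 1-a). Between kinds, 2059 genes were called with set and kind in 1 model.

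The main model did not pair libraries by replicate number. Deviations of same-numbered libraries from their group means correlated at -0.29 to 0.06, which cannot exclude pairing in groups this small. With the replicate block limma called 0 genes by genotype (633 at an unadjusted p under 0.05), and no call on a factor changed.

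Genotype signs turned for several factors with small differences, and the cause was not tested. With library kind in place of set, Lef1 was 0.13, Bach2 0.073, Foxp1 0.085 and Id3 0.40. With Y-linked transcripts added to that model they were 0.17, 0.066, 0.071 and 0.29. With library weights, Foxp1 was 0.073 and Id3 0.29. In low-Rn45s libraries alone, Lef1 was 0.18, Klf2 0.12 and Id3 0.82. In high-Rn45s libraries alone, Tcf7 was -0.015, Lef1 0.061, Bach2 0.24 and Foxp1 0.22. Without the libraries that hold Y-linked transcripts, Lef1 was 0.059 and Foxp1 0.067. Centred on library medians, Lef1 was -0.036 in set a and Foxp1 0.0092 in set b. In set b, CPM outside Rn45s gave Bach2 -0.13 and Klf2 -0.14, and library kind as covariate gave Lef1 0.061, Foxp1 0.22 and Klf2 -0.41. The covariate values are those of the high-Rn45s libraries alone, as all wild type libraries of set b are of that kind. Between sets, the model with kind gave Foxp1 -0.068 and Klf3 -0.77. Between kinds, Satb1 was 0.14 with CPM outside Rn45s and 0.17 with set in the model.

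Signs also turned with 1 library left out. By genotype the range was -0.17 to 0.077 for Bach2, -0.078 to 0.066 for Foxp1, -0.19 to 0.059 for Klf2 and -0.24 to 0.20 for Id3. In set a it was -0.55 to 0.11 for Bach2, -0.20 to 0.16 for Foxp1, -0.42 to 0.046 for Klf2, -0.18 to 0.094 for Klf3 and -0.10 to 0.17 for Lef1. In set b it was -0.079 to 0.14 for Bach2, -0.10 to 0.13 for Foxp1, -0.22 to 0.25 for Klf2 and -0.090 to 0.0063 for Tcf7. Between sets it was -0.080 to 0.24 for Klf3, and between kinds -0.15 to 0.027 for Satb1. Between kinds, leaving out wild type 3-a brought Bach2 (0.64, adjusted p = 0.0289 in limma) and Foxp1 (0.38, adjusted p = 0.0476) past the threshold, and leaving out Il1rn-/- 2-b did so for Klf3 (0.87, adjusted p = 0.00819), which was 0.26 without Il1rn-/- 1-b (adjusted p = 0.453). Klf3 passed there with set in the model (1.17, adjusted p = 0.0370 in limma). Depth limits Klf2, Klf3 and Bach2 most, with at most 93, 184 and 199 reads in a library.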
